A study of Mus musculus with 75 samples.

Results

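The genes described here were H19, Igf2, Igf2r and Grb10, 4 imprinted genes that set fetal growth through insulin-like growth factor signalling. They were found by symbol among 52535 entries in the tables of receptor knockouts and overexpressing cells, and by Ensembl identifier among 52636 entries in the table of enhancer deletions. They had been chosen by measured values: H19 and Igf2 were selected on their higher levels in cells overexpressing a retinoic acid receptor, and Grb10 on its lower levels in the receptor knockouts. Igf2r completes the axis. Those differences are therefore given as descriptions without a test. All 4 had enough counts to be tested in every table, and they were the only genes chosen.

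Imprinted genes are expressed mainly from the copy inherited from one parent. H19, a maternally expressed long non-coding RNA, and Igf2, a paternally expressed growth factor, lie next to each other and share enhancers. A control region, bound by CTCF only where it is unmethylated, decides which of the pair those enhancers reach. IGF2 signals through the IGF1 receptor and the insulin receptor, whereas IGF2R, the maternally expressed mannose 6-phosphate receptor, carries IGF2 to lysosomes for breakdown. GRB10 is an adaptor that binds these receptors and dampens their signal; it is maternal in most tissues and paternal in neurons. H19 and Igf2 are known as abundant RNAs of extraembryonic endoderm and trophoblast, and retinoic acid (RA) drives part of the cells of such cultures towards extraembryonic endoderm.

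The study took mouse E14 embryonic stem cells (ESCs), a male line, out of leukaemia inhibitory factor and its pair of kinase inhibitors (LIF/2i) and gave them 2 µM RA for 24 h; untreated cells were not among the RNA libraries. Poly-A or other selection of the RNA is not given in the sources used here. One table held the control WT (RARX) beside Rarα-KO cells, labelled as knocked out for the RA receptor gene Rara, Rxrα-KO cells, for its partner Rxra, and RARX-DKO cells, for both, at 2 replicates each. A second held V-OE, taken here as the vector control by its label, with Rarα-OE and Rxrα-OE cells that overexpress one receptor, at 2 replicates each. The last held the control WT (Cyp26) and cells lacking 1 of 2 enhancers named after the RA-degrading Cyp26 genes, Cyp26-E1-KO or Cyp26-E2-KO, at 3 replicates each. These 23 RNA libraries were part of 75 samples. The columns of the last table named their deletions by other letters than the sample titles, and the titles of the Cyp26-E2-KO libraries lack the word KO, so the assignment of E1 and E2 rests on the match described under processing. Whether a line was 1 clone is not given in the sources used here. The replicates are called biological in the labels, and p-values measure the spread between them.

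Totals ran from 7408691 to 13052102 counts per library in the knockout table, from 7835519 to 11453063 in the overexpression table and from 28397794 to 33601996 in the enhancer table. Rara lay at 4.37 to 5.35 CPM (counts scaled to a library size of 1000000) in Rarα-KO against 100.1 to 108.7 in WT (RARX). Rxra remained at 16.1 to 18.4 CPM in Rxrα-KO against 38.2 to 46.0, so part of its RNA was still counted there. RARX-DKO had 5.57 and 6.53 CPM of Rara and 13.6 and 27.6 of Rxra, whose log2 fold change against WT (RARX) was -1.04 (edgeR adjusted p = 0.0654, above the threshold of 0.05). The overexpressing lines had 104.5 to 111 CPM of Rara against 51.6 to 52.4 in V-OE, and 202 to 204 CPM of Rxra against 42.9 to 45.7. Cyp26a1, an RA-induced enzyme, lay at 33.8 to 58.8 CPM in Cyp26-E1-KO, 363 to 391 in Cyp26-E2-KO and 368 to 385 in WT (Cyp26). The Y-linked genes Eif2s3y and Ddx3y had 0 counts in Rarα-KO and RARX-DKO, against 44.0 to 62.6 and 33.9 to 53.7 CPM in WT (RARX). They had at most 1.28 CPM in the overexpression table. Rarα-KO and RARX-DKO therefore differ from WT (RARX) in more than the named genes. Since Y-linked genes were counted in Rxrα-KO, its comparisons with Rarα-KO and RARX-DKO share this difference. The part of this in the results was not tested. Replicate 2 of Cyp26-E1-KO stood apart: its median absolute difference from the rest of its group was 0.293 on the log2 scale, against 0.184 and 0.201 for the other Cyp26-E1-KO libraries and 0.114 to 0.148 in WT (Cyp26) and Cyp26-E2-KO.

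H19 and Igf2 lie on the minus strand of chromosome 7, 72623 bases apart. H19 (ENSMUSG00000000031) spans chr7:142575529-142578143 in mm10, and Igf2 (ENSMUSG00000048583) spans chr7:142650766-142666816. Igf2r (ENSMUSG00000023830) spans chr17:12682406-12769664 and Grb10 (ENSMUSG00000020176) spans chr11:11930508-12038683, both also on the minus strand. The antisense RNA Igf2os overlaps Igf2 by 7124 bases, and Airn, the paternal non-coding RNA that silences the paternal Igf2r copy, overlaps Igf2r by 28354 bases. Since use of strand in the counting is not given in the sources used here, reads of these overlaps cannot be assigned with certainty. H19 also carries the microRNA Mir675, whose precursor is cut from its transcript. The mature forms, shown because H19 is the gene of the 4 with the widest range and these are its small RNA products, are printed from RefSeq (GRCm38.p6, chr7:142577078-142577099 and chr7:142577112-142577133, minus strand, within H19), with the seed, bases 2 to 8, in capitals.
miR-675-3p: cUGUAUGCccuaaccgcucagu
miR-675-5p: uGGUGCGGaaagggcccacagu
The arms have different seeds. Mir675 itself was listed with 0 counts in all 23 libraries, also where H19 lay above 1600 CPM, so its product was not measured here.

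Promoters were read from RefSeq (GRCm38.p6), from 250 bases before to 50 after each start, to see whether the letters of a receptor half-site are present at genes that differed with receptor dose. Of the 4 genes 3 matched, with 4 promoters for Igf2, 2 for Grb10 and 1 for Igf2r. The motifs searched were the half-site AGGTCA, the variant GGGTCA, the variant AGTTCA and the variant GGTTCA, each of 6 letters, on both strands. The most upstream promoter of Igf2 (chr7:142666767-142667066, minus strand) held 3 matches and the promoter of Igf2r (chr17:12769657-12769956, minus strand) held 2. Capitals mark the matches, read on either strand.
Igf2: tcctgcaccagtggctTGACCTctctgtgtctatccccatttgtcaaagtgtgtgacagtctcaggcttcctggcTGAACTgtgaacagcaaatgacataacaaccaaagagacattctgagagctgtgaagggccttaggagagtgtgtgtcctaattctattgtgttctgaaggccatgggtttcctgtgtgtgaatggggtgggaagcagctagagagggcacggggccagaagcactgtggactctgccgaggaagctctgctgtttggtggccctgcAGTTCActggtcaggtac
Igf2r: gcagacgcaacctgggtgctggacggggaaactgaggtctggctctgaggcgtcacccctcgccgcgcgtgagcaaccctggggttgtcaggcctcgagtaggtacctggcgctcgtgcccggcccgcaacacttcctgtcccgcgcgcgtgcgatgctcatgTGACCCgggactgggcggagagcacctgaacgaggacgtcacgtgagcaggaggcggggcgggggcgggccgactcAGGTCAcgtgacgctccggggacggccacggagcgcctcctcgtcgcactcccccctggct
Of 32851 promoters in the table, 43.7% held at least 1 match, 13.1% held 2 or more and 2.93% held 3 or more, and 16.3% held AGGTCA, which both of these carry. The other 3 promoters of Igf2 and both of Grb10 held none of these letters. A match is a string of letters and not a measured binding site.

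The promoters also differed in CG dinucleotides, the sites of DNA methylation. The Grb10 promoter at chr11:12037371-12037670 (minus strand) held 45, as many as or more than 98.4% of all promoters, and its downstream one, at chr11:12027922-12028221, held 9. The promoter with 45 is printed with its CG pairs in capitals, since it held the most of the promoters read here. Whether it is methylated was not measured.
Grb10: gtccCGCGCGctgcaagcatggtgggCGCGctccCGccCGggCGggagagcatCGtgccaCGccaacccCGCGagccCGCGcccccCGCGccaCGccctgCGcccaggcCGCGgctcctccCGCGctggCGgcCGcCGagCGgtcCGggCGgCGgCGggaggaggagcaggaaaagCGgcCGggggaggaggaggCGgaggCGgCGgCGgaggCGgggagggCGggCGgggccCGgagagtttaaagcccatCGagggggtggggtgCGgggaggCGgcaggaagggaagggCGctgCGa
Igf2r held 34, and the Igf2 promoter printed above held 2, against a median of 7. The counts do not separate transcripts by promoter or by parental copy, so neither imprinting nor promoter use was measured.

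**Figure D1:**
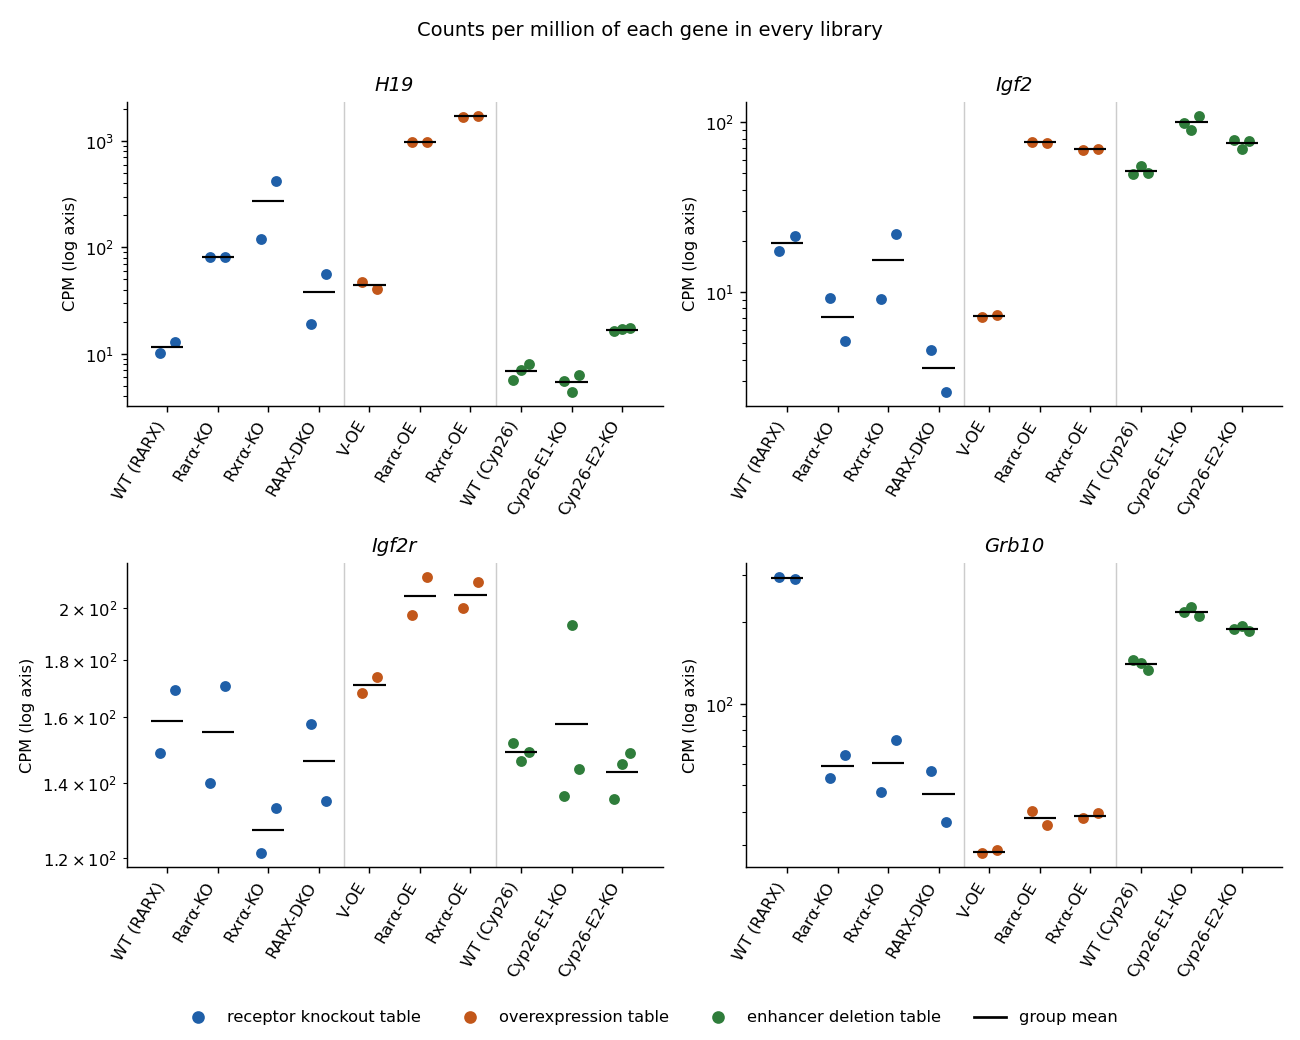
CPM of H19, Igf2, Igf2r and Grb10 in each of 23 libraries on a log axis, with points for libraries, black bars for group means and colours for the 3 tables. H19 spans from 4.38 to 1728 CPM, whereas every library of Igf2r lies between 121 and 213 CPM.

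The 4 genes differed widely in how far their levels ranged. Between the lowest and the highest group mean, H19 spanned 316-fold, from 5.41 CPM in Cyp26-E1-KO to 1707 in Rxrα-OE. Igf2 spanned 27.9-fold, from 3.56 in RARX-DKO to 99.6 in Cyp26-E1-KO. Grb10 spanned 10.2-fold, from 28.4 in V-OE to 291 in WT (RARX), and Igf2r 1.62-fold, from 127 in Rxrα-KO to 206 in Rxrα-OE. The tables were normalized separately, so levels set across them are descriptions. As one example, the 3 control groups themselves had mean Grb10 levels of 291, 28.4 and 140 CPM, although all are labelled as RA-treated for 24 h.

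H19, the non-coding RNA, was the gene that differed most in the overexpressing cells. It lay at 47.5 and 41.0 CPM in V-OE, at 967 and 971 in Rarα-OE and at 1686 and 1728 in Rxrα-OE. The 3 groups did not overlap, and Rxrα-OE was the highest. Against V-OE, H19 was 22.0-fold higher in Rarα-OE (log2 fold change, log2FC, 4.46 ± 0.05, standard error) and 38.8-fold higher in Rxrα-OE (5.28 ± 0.05). The direct difference between the overexpressing lines was 0.82 ± 0.04.

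In the receptor knockouts H19 was higher than in WT (RARX) but replicates disagreed. It lay at 10.2 and 12.9 CPM in WT (RARX), at 81.8 and 81.5 in Rarα-KO, at 119.5 and 421.5 in Rxrα-KO and at 18.97 and 56.7 in RARX-DKO. No knockout library lay as low as the WT (RARX) libraries, while the libraries of the Rxrα-KO and RARX-DKO pairs lay far apart. The log2FC against WT (RARX) was 2.81 ± 0.87 in Rarα-KO, 4.54 ± 0.91 in Rxrα-KO and 1.69 ± 0.87 in RARX-DKO. These share the WT (RARX) libraries, and none was called by edgeR (adjusted p = 0.363, 0.107 and 0.495 in that order). H19 values thus lay above their own control both where a receptor was deleted and where one was overexpressed. The differences in the knockouts did not pass.

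Differences of H19 between the knockouts were not named by the rule, though they use libraries the rule also used, and none passed edgeR's quasi-likelihood test. The difference of Rxrα-KO from Rarα-KO was 1.73 ± 0.78 (95% interval -0.35 to 3.80, adjusted p = 0.299), and that of RARX-DKO from Rarα-KO was -1.12 ± 0.80 (-3.25 to 1.01, adjusted p = 1). RARX-DKO lay 2.85 ± 0.83 below Rxrα-KO on the log2 scale, a log2FC of -2.85 (-5.05 to -0.65, edgeR adjusted p = 0.181). DESeq2 put this last difference at -2.84 with an adjusted p of 0.0127. Across all genes 5.38% were called between the single knockouts, 0.0122% between RARX-DKO and Rarα-KO and 3.5% between RARX-DKO and Rxrα-KO. RARX-DKO lay below the sum of the single knockout effects by a log2FC of -5.66 ± 1.199, given as a description.

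The enhancer deletions, which the rule did not use, separated H19 by deletion. H19 lay at 5.71, 6.98 and 8.04 CPM in WT (Cyp26), at 5.50, 4.38 and 6.34 in Cyp26-E1-KO and at 16.4, 17.0 and 17.3 in Cyp26-E2-KO. Every Cyp26-E2-KO library lay above all others, while Cyp26-E1-KO and WT (Cyp26) overlapped. H19 rose 2.44-fold in Cyp26-E2-KO (log2FC 1.29 ± 0.15, edgeR adjusted p = 5.89e-05), where 9.28% of tested genes rose. Its difference in Cyp26-E1-KO was -0.35 ± 0.16 (95% interval -0.69 to -0.01, adjusted p = 0.123), and it did not pass. Tested directly, H19 was 3.12-fold higher in Cyp26-E2-KO than in Cyp26-E1-KO (1.64 ± 0.16, adjusted p = 4.01e-05), a comparison in which 2.02% of genes were higher.

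H19 counts were made on different terms in the tables. Gm27483 (chr7:142576853-142576923) and Gm27786 (chr7:142577849-142577918), 71 and 70 bases long, are annotated inside H19 on the opposite strand. Their summed counts were 38.3% to 51.4% of H19's in the 8 knockout libraries and 29.8% to 43.0% in the 6 overexpression libraries, but 0 in all 9 enhancer libraries. Reads of H19 that overlap them may have been assigned or dropped in another way there; this was not tested, and H19 is compared only within a table.

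**Figure D2:**
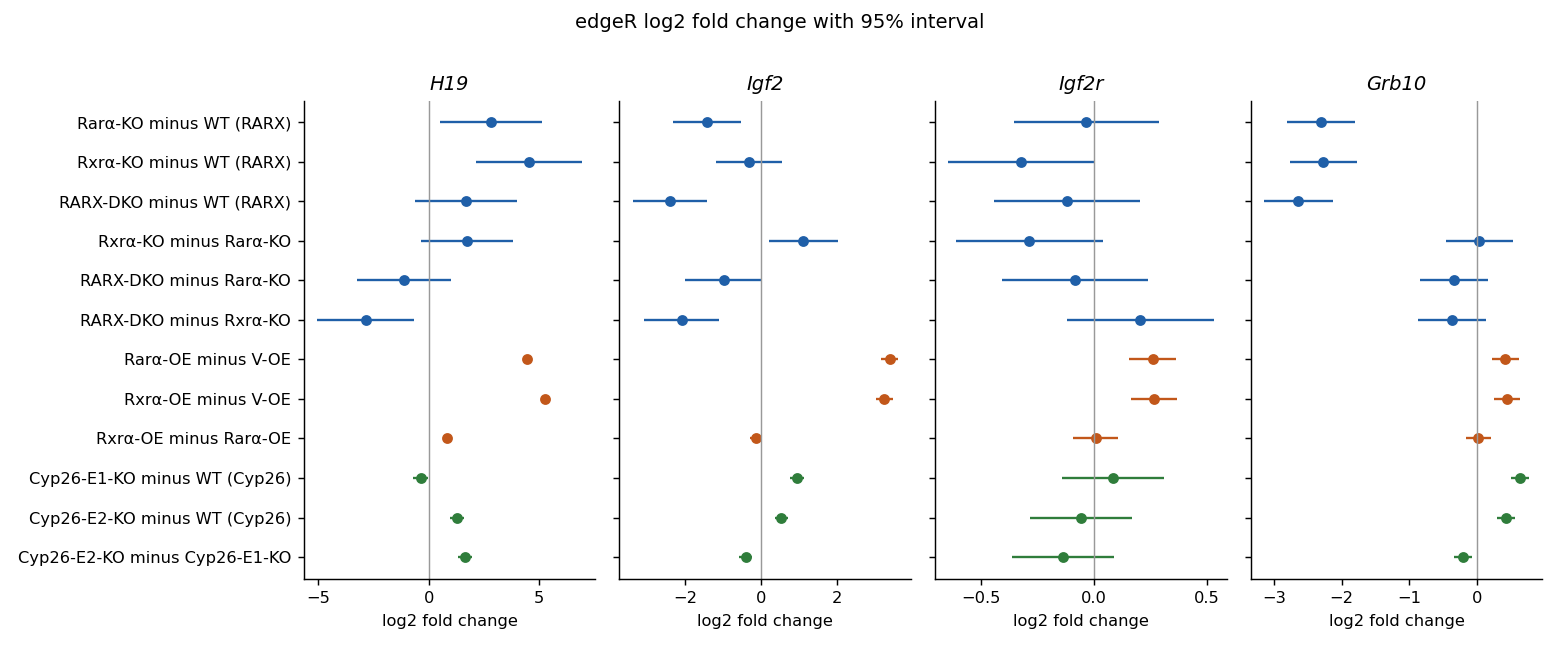
The log2 fold change (x axis, with its own range in each panel) of H19, Igf2, Igf2r and Grb10 in 12 comparisons, with points for edgeR estimates and lines for 95% intervals. Blue marks the knockout, orange the overexpression and green the enhancer table. Intervals of Igf2r lie near 0 throughout. Points of H19 and Igf2 lie above 0 in both overexpressing lines, and those of Grb10 below 0 in the 3 knockouts against their control. These genes were chosen by those values, so the intervals drawn there are descriptions and no test.

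Igf2, the ligand, was also higher in the overexpressing cells. It lay at 7.13 and 7.34 CPM in V-OE, at 76.8 and 75.7 in Rarα-OE and at 68.7 and 69.7 in Rxrα-OE. Both overexpressing lines lay above V-OE in every library, and here Rarα-OE was the higher of them. Igf2 was 10.5-fold higher in Rarα-OE (log2FC 3.39 ± 0.11) and 9.54-fold higher in Rxrα-OE (3.25 ± 0.11). Rxrα-OE minus Rarα-OE was -0.14 ± 0.07 for Igf2, where H19 had 0.82 in the same comparison.

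Igf2 and H19 parted in the knockouts. Igf2 lay at 17.3 and 21.4 CPM in WT (RARX), at 9.20 and 5.13 in Rarα-KO, at 9.11 and 21.9 in Rxrα-KO and at 4.54 and 2.58 in RARX-DKO. Rarα-KO and RARX-DKO lay below WT (RARX) in every library, and Rxrα-KO overlapped it. The log2FC of Igf2 against WT (RARX) was -1.43 ± 0.41 in Rarα-KO, -0.32 ± 0.40 in Rxrα-KO and -2.42 ± 0.45 in RARX-DKO, where H19 had positive values in all 3. Igf2 in RARX-DKO lay -0.67 ± 0.61 from the summed single effects.

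Among the direct tests between knockouts, 1 of 3 passed for Igf2. Igf2 was 4.29-fold lower in RARX-DKO than in Rxrα-KO (log2FC -2.10 ± 0.45, 95% interval -3.09 to -1.11, edgeR adjusted p = 0.0296). This call was lost without replicate 2 of Rxrα-KO (-1.35, adjusted p = 0.140) and without replicate 1 or 2 of RARX-DKO (adjusted p = 0.0766 and 0.0932), and with only these 2 groups fitted (-2.10, adjusted p = 0.119). Rxrα-KO minus Rarα-KO was 1.11 ± 0.42 (0.20 to 2.02, adjusted p = 0.145), a call gained without replicate 1 of Rxrα-KO (1.59, adjusted p = 0.0345), and RARX-DKO minus Rarα-KO was -0.99 ± 0.46 (-2.003 to 0.02, adjusted p = 1).

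Igf2 was higher in both enhancer deletions than in their control. It lay at 49.6, 55.0 and 50.5 CPM in WT (Cyp26), at 99.2, 90.3 and 109 in Cyp26-E1-KO and at 78.0, 69.7 and 77.1 in Cyp26-E2-KO. The groups did not overlap and Cyp26-E1-KO was the highest, whereas H19 was highest in Cyp26-E2-KO. Igf2 rose 1.92-fold in Cyp26-E1-KO (log2FC 0.94 ± 0.08, edgeR adjusted p = 1.74e-06), where 13.1% of genes rose, and 1.45-fold in Cyp26-E2-KO (0.53 ± 0.08, adjusted p = 0.000458). It was 1.33-fold lower in Cyp26-E2-KO than in Cyp26-E1-KO (-0.41 ± 0.08, adjusted p = 0.0102), where 2.46% of genes were lower; without replicate 2 of Cyp26-E2-KO that adjusted p was 0.0687, and with only the 2 deletions fitted it was 0.0535.

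The antisense RNA Igf2os rose in both overexpressing lines and in Cyp26-E1-KO, and was not called in Cyp26-E2-KO. In the overexpressing lines Igf2os rose by 2.73 ± 0.41 in Rarα-OE (edgeR adjusted p = 3.54e-07) and 1.98 ± 0.44 in Rxrα-OE on the log2 scale, from 0.798 ± 0.41 CPM (SD, n = 2) in V-OE. It rose by 0.67 ± 0.15 in Cyp26-E1-KO (adjusted p = 0.00529), and in Cyp26-E2-KO its log2FC was 0.33 (adjusted p = 0.161). Because it overlaps Igf2, part of its counts may belong to Igf2.

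**Figure D3:**
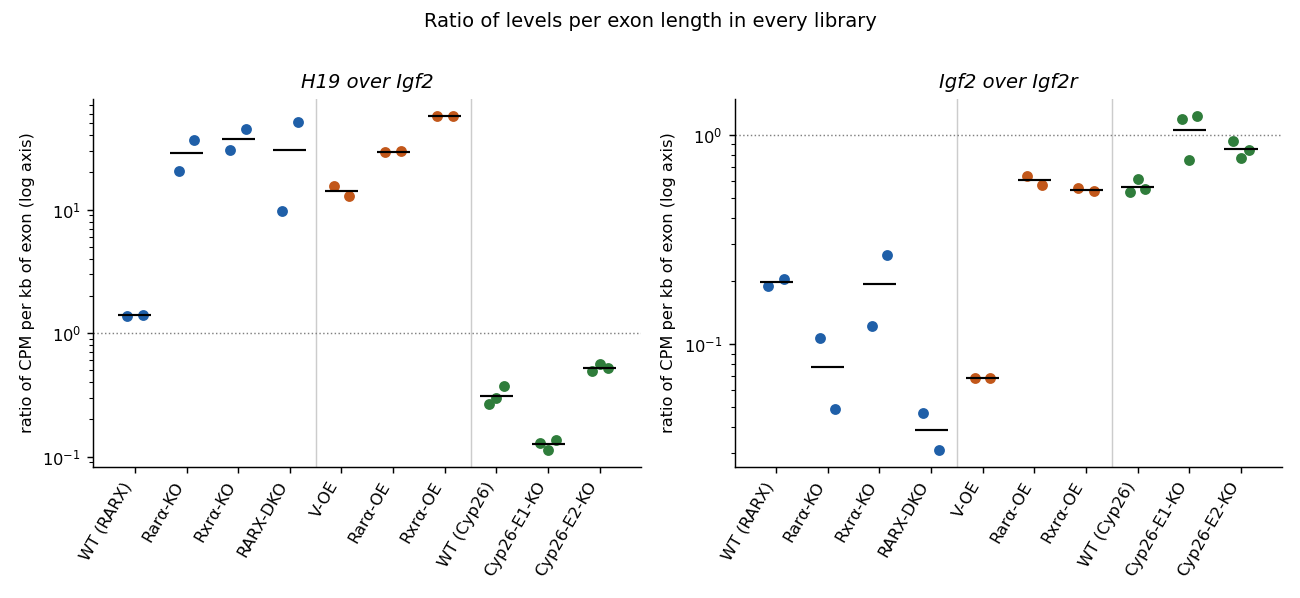
Ratios of CPM per kilobase of exon in each of 23 libraries on log axes, H19 over Igf2 on the left and Igf2 over Igf2r on the right, with black bars for group means and a dotted line at equal levels. H19 is below Igf2 in the 9 enhancer libraries and above it in the 14 others, and Igf2 exceeds Igf2r in only 2 libraries, both Cyp26-E1-KO.

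Since H19 and Igf2 share enhancers, their levels were set against each other per kilobase of exon. The counts do not separate the parental copies, so the ratio does not measure which gene the enhancers reach. This ratio of H19 to Igf2 was 1.37 and 1.41 in WT (RARX). It was 20.7 and 37.0 in Rarα-KO, 30.5 and 44.9 in Rxrα-KO and 9.71 and 51.1 in RARX-DKO. All 6 knockout libraries therefore held many times more H19 relative to Igf2 than their control.

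In the overexpression table the ratio was already high in the control. It was 15.5 and 13.0 in V-OE, 29.3 and 29.8 in Rarα-OE and 57.1 and 57.7 in Rxrα-OE. Both genes were thus higher in the overexpressing lines, H19 more so than Igf2, and most in Rxrα-OE. The enhancer table had ratios of 0.267, 0.295 and 0.370 in WT (Cyp26), 0.129, 0.113 and 0.135 in Cyp26-E1-KO and 0.490, 0.566 and 0.521 in Cyp26-E2-KO. The deletions lay on opposite sides of their control, without overlap. H19's different counting in that table, described above, bears on the level of this ratio there.

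Igf2r, the scavenging receptor, varied least. It lay at 149 and 169 CPM in WT (RARX), 140 and 170.5 in Rarα-KO, 121 and 133 in Rxrα-KO and 158 and 135 in RARX-DKO. Only Rxrα-KO lay below both WT (RARX) libraries. The log2FC of Igf2r was -0.03 ± 0.15, -0.32 ± 0.15 and -0.12 ± 0.15 in that order. None of its direct differences between knockouts passed: Rxrα-KO minus Rarα-KO was -0.29 ± 0.15 (95% interval -0.61 to 0.04, edgeR adjusted p = 0.289), RARX-DKO minus Rarα-KO was -0.08 (-0.41 to 0.24, adjusted p = 1), and RARX-DKO minus Rxrα-KO was 0.20 (-0.12 to 0.53, adjusted p = 0.521).

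Overexpressing cells had slightly more Igf2r. It lay at 168 and 174 CPM in V-OE, at 197 and 213 in Rarα-OE and at 200.2 and 211 in Rxrα-OE, without overlap with V-OE. The log2FC was 0.26 ± 0.05 and 0.27 ± 0.05, and the overexpressing lines differed by 0.01 ± 0.05 (-0.09 to 0.11, adjusted p = 0.935). Airn, its silencer, rose in both, by 1.49 ± 0.37 (edgeR adjusted p = 0.00151) and 2.00 ± 0.35 (adjusted p = 1.84e-06).

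Neither enhancer deletion gave a call for Igf2r. It lay at 152, 146 and 149 CPM in WT (Cyp26), at 136, 193 and 144 in Cyp26-E1-KO and at 135, 146 and 149 in Cyp26-E2-KO. The value of 193 belongs to replicate 2 of Cyp26-E1-KO, the library that stood apart. The differences were 0.08 ± 0.11 (95% interval -0.14 to 0.31, edgeR adjusted p = 0.625) and -0.06 ± 0.11 (-0.28 to 0.17, adjusted p = 0.773), and -0.14 (-0.37 to 0.09, adjusted p = 0.539) between the deletions. Airn was not called there, at 0.18 to 0.378 CPM in group means.

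The ratio of Igf2 to Igf2r per kilobase was 0.0689 and 0.0687 in V-OE, 0.633 and 0.578 in Rarα-OE and 0.558 and 0.537 in Rxrα-OE. It was 0.189 and 0.205 in WT (RARX), 0.107 and 0.0489 in Rarα-KO, 0.122 and 0.267 in Rxrα-KO and 0.0468 and 0.0312 in RARX-DKO. The Rxrα-KO pair lay on either side of the control, and both other knockouts lay below it. In WT (Cyp26) it was 0.531, 0.612 and 0.551, against 1.185, 0.759 and 1.23 in Cyp26-E1-KO and 0.937, 0.779 and 0.843 in Cyp26-E2-KO, where no library fell within the control range.

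Grb10, the adaptor, was lower in every receptor knockout. It lay at 293 and 288 CPM in WT (RARX), at 53.3 and 64.4 in Rarα-KO, at 47.1 and 73.3 in Rxrα-KO and at 56.2 and 36.7 in RARX-DKO. The 6 knockout libraries overlapped each other and lay far below both controls. Grb10 was 4.94-fold lower in Rarα-KO (log2FC -2.30 ± 0.23), 4.83-fold lower in Rxrα-KO (-2.27 ± 0.23) and 6.24-fold lower in RARX-DKO (-2.64 ± 0.23). RARX-DKO lay 1.93 ± 0.32 above the summed single effects on the log2 scale, since it was about as low as either single knockout. All of these share the 2 WT (RARX) libraries.

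Between the knockouts Grb10 differed little. Rxrα-KO minus Rarα-KO was 0.03 ± 0.23, RARX-DKO minus Rarα-KO was -0.34 ± 0.23 and RARX-DKO minus Rxrα-KO was -0.37 ± 0.23, given without a test. The genes around Grb10 did not share its difference. The median log2FC of 18 tested genes within 5 Mb was 0.00, -0.08 and 0.07 in Rarα-KO, Rxrα-KO and RARX-DKO, and none of the 5 tested within 500 kb was called by edgeR or DESeq2 in any of the 3, with 1 at an unadjusted p under 0.05 in each.

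Overexpressing cells held slightly more Grb10. Grb10 lay at 28.0 and 28.8 CPM in V-OE, at 40.1 and 35.8 in Rarα-OE and at 37.8 and 39.5 in Rxrα-OE. Both lines lay above V-OE, by 0.42 ± 0.10 and 0.45 ± 0.10 (1.34-fold and 1.36-fold), and the direct difference was 0.02 ± 0.10 (95% interval -0.17 to 0.22, edgeR adjusted p = 0.861). The V-OE level lay below even the knockouts of the other table.

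Grb10 was higher in both enhancer deletions than in their control. It lay at 145.5, 141 and 134 CPM in WT (Cyp26), at 217, 227 and 211 in Cyp26-E1-KO and at 188, 194 and 186 in Cyp26-E2-KO, with no overlap between groups. Grb10 rose 1.56-fold in Cyp26-E1-KO (log2FC 0.64 ± 0.06, edgeR adjusted p = 4.87e-06) and 1.35-fold in Cyp26-E2-KO (0.44 ± 0.06, adjusted p = 0.000261). The difference between the deletions, -0.21 ± 0.06 (95% interval -0.34 to -0.07), did not pass (adjusted p = 0.0791), but did without replicate 2 of Cyp26-E1-KO (-0.17, adjusted p = 0.0196) and by DESeq2 (adjusted p = 0.0257). The order of the 3 groups was that of Igf2.

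Markers of other cell types moved with the overexpression values. The summed level of 18 extraembryonic endoderm markers was 532 to 560 CPM in V-OE, 1455 to 1459 in Rarα-OE and 1835 to 1838 in Rxrα-OE, with Afp at 0 in V-OE. Of 16 tested, 14 rose in each line against V-OE and 1 fell in Rarα-OE, where 14.7% of all genes rose in Rarα-OE and 30.9% in Rxrα-OE. The 9 trophoblast markers summed to 114 to 115.5, 590.5 to 639 and 669 to 698 CPM, led by Krt18 (log2FC 3.83 in Rarα-OE), and the 8 fibroblast markers to 37.2 to 37.3, 63.8 to 66.8 and 130.5 to 135.5 CPM. The 5 ESC markers summed to 5188 to 5356, 3820 to 3859 and 1230 to 1254 CPM, and all 5 fell in both lines, where 13.9% and 29.3% of all genes fell. The part of these cell types in the H19 and Igf2 values was not tested, and in bulk RNA more cells of a type and more RNA per cell cannot be told apart.

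The same marker sums differed between groups of the other tables as well. Endoderm markers lay at 608.5 to 648 CPM in WT (RARX), 514 to 579 in Rarα-KO, 831 to 918 in Rxrα-KO and 507 to 536 in RARX-DKO, with Ttr at 0 in all but the last, an order shared with Igf2 only in part. Of 15 tested, 8 fell in RARX-DKO against WT (RARX) (1.19% of all genes fell and 1.05% rose), 9 were higher in Rxrα-KO than in Rarα-KO (2.19% were higher and 3.19% lower), and 10 were lower in RARX-DKO than in Rxrα-KO (1.48% were lower), the comparison in which Igf2 passed. Trophoblast markers ranged from 64.0 to 143 CPM over Rxrα-KO alone, the group with the widest H19 pair. Such a sum follows its most abundant members, and Krt8 and Krt18 held most of it in WT (RARX), at 56.3 and 18.3 CPM. The tested members went both ways in Rxrα-KO against WT (RARX), none of them called. The log2FC was 2.00 for Hand1, 0.69 for Eomes and 0.15 for Gata3. It was -0.86 for Cdx2, -0.81 for Tfap2c, -0.35 for Krt8 and -0.18 for Krt18. In the enhancer table endoderm markers lay at 938 to 965 CPM in WT (Cyp26), 1092 to 1139 in Cyp26-E1-KO and 1199 to 1218 in Cyp26-E2-KO, with Ttr and Apoa1 at 0, and trophoblast markers at 95.6 to 103, 154.5 to 157 and 119 to 134 CPM. Igf2 and Grb10 had the order of the trophoblast sum and H19 did not; the part of either was not tested.

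ESC markers summed to 2824 to 2842 CPM in WT (RARX), 3614 to 4365 in Rarα-KO, 3534 to 3629 in Rxrα-KO and 4152 to 4374 in RARX-DKO. In the enhancer table they summed to 1516 to 1597 CPM in WT (Cyp26), 1199 to 1414 in Cyp26-E1-KO and 1217 to 1333 in Cyp26-E2-KO. No sum of a knockout or deletion overlapped that of its control. Pou5f1 held the largest part of the sum in WT (RARX), at 1493 CPM. In Rxrα-KO against WT (RARX) Nanog had a log2FC of -0.38, not called. The other ESC markers had positive values there, of which Sox2 (0.69) and Zfp42 (0.64) were called. The part of these differences in the values of the 4 genes was not tested.

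The other genes of the pathway were taken from 7 lists of ligands, receptors, binding proteins, RNA-binding proteins, adaptors, the PI3K to mTOR arm and GRB10 partners, 50 genes in all. None of 38 tested was called in any single or double knockout against WT (RARX) by edgeR, where 0.645%, 2.47% and 2.24% of all genes were called. At an unadjusted p under 0.05 there were 2, 8 and 9 of the 38 in Rarα-KO, Rxrα-KO and RARX-DKO, and DESeq2 called 1, 0 and 1. Rarα-OE had 11 higher and 6 lower of 39 tested, with a median log2FC of 0.08 against 0.00 over all genes, where 28.6% of all genes were called. DESeq2 called 9 of these 39, against 17 by edgeR, and 2416 genes in all against 4829. Rxrα-OE had 18 higher and 11 lower (median 0.17), where 60.2% were called. In Cyp26-E1-KO 10 were higher and 5 lower of 44 (median 0.04, 25.3% of all genes called), and in Cyp26-E2-KO 5 and 6 (median -0.03, 17.5% called).

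**Figure D4:**
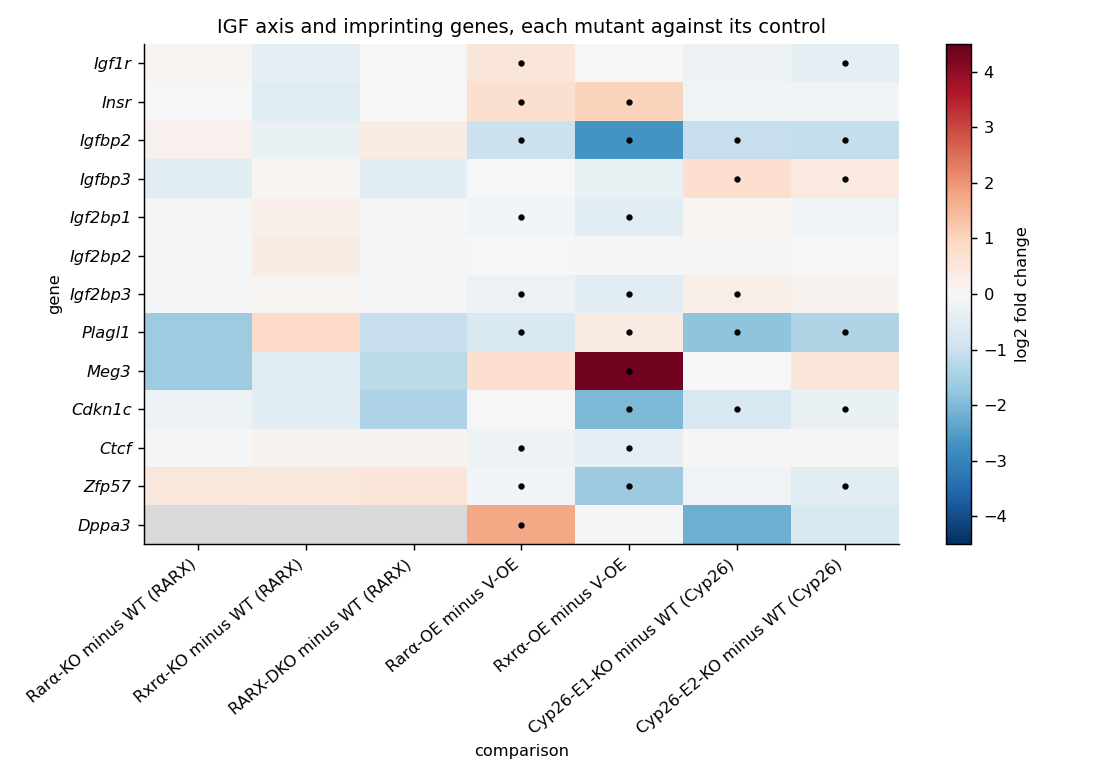
The log2 fold change (colour, blue lower and red higher) of 13 genes of the IGF axis and of imprinting (rows) in 7 comparisons of a mutant with its control (columns), with dots for calls at an adjusted p under 0.05 and grey for genes not tested. Igfbp2 is lower in both overexpressing lines and in both enhancer deletions, and none of the 13 has a dot in the 3 knockout columns.

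Of the receptors, Insr, the insulin receptor, rose by 0.72 ± 0.10 in Rarα-OE and 0.99 ± 0.10 in Rxrα-OE on the log2 scale. Igf1r, through which IGF2 mainly signals, rose by 0.54 ± 0.08 in Rarα-OE (edgeR adjusted p = 2.9e-07) and had a log2FC of 0.00 ± 0.08 in Rxrα-OE, a difference between the lines of -0.54 ± 0.08 that passed (adjusted p = 8.2e-08), as did 47.2% of all genes. In Cyp26-E2-KO Igf1r fell to 36.0 ± 3.8 from 48.2 ± 0.86 CPM (SD, n = 3; log2FC -0.42, adjusted p = 0.01), and in Cyp26-E1-KO neither receptor was called. Igf1, the other ligand, rose in Cyp26-E2-KO from 0.275 to 1.201 CPM (2.11 ± 0.44, adjusted p = 0.0042).

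Binding proteins hold IGF2 outside the cell. Igfbp2 fell from 402 ± 18 CPM in V-OE to 206 ± 0.99 in Rarα-OE and 62.0 ± 1.7 in Rxrα-OE (log2FC -0.96 and -2.70), and from 360 ± 12 CPM in WT (Cyp26) to 173 ± 12 in Cyp26-E1-KO and 172 ± 9.4 in Cyp26-E2-KO (-1.05 and -1.07, edgeR adjusted p = 1.9e-07 and 4.6e-07). It fell in each of the 4 groups in which Igf2 was higher. Igfbp3 rose in Cyp26-E1-KO (0.74 ± 0.10) and Cyp26-E2-KO (0.44 ± 0.10) and had -0.02 and -0.34 in Rarα-OE and Rxrα-OE. Stc2, an inhibitor of the protease that frees IGF from its binding proteins, fell in all 4, by 0.67, 1.58, 1.53 and 1.74 on the log2 scale in Rarα-OE, Rxrα-OE, Cyp26-E1-KO and Cyp26-E2-KO. In the knockouts Igfbp2 had 0.19, -0.31 and 0.35 against WT (RARX), and it was higher in RARX-DKO than in Rxrα-KO (0.66 ± 0.14, adjusted p = 0.021), the comparison in which Igf2 was lower.

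The IGF2BP proteins bind Igf2 and H19 RNA. Igf2bp1 fell by 0.13 in Rarα-OE and 0.46 in Rxrα-OE on the log2 scale, and Igf2bp3 by 0.26 and 0.50, while Igf2bp2 had 0.02 and -0.07. In the enhancer deletions only Igf2bp3 in Cyp26-E1-KO was called (0.27 ± 0.08, edgeR adjusted p = 0.024). Downstream of the receptors, the adaptor Irs1 rose by 2.56 ± 0.72 in Rarα-OE and 3.83 ± 0.60 in Rxrα-OE from 0.213 CPM, and Pik3r1, a regulatory subunit of PI3-kinase, by 0.89 and 1.60. Shc1, another adaptor, rose in Cyp26-E1-KO (0.53) and Cyp26-E2-KO (0.20). Of the GRB10 partners, Gigyf2 rose in Rxrα-OE (0.45 ± 0.05) and fell in Cyp26-E2-KO (-0.30 ± 0.07), and the ubiquitin ligase Nedd4 fell in Rxrα-OE (-0.43 ± 0.04).

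Of 8 listed factors that keep imprints, 1 rose and 4 fell in Rarα-OE, and 1 rose and 6 fell in Rxrα-OE. Over all genes 13.9% fell in Rarα-OE and 29.3% in Rxrα-OE. Zfp57, which binds methylated control regions, had a log2FC of -0.12 and -1.63, its partner Trim28 -0.46 and -1.06, and Ctcf -0.24 and -0.40, all called. Dppa3, which protects imprints in the early embryo, rose in Rarα-OE (1.72 ± 0.45). In Cyp26-E2-KO 4 of the 8 fell (8.2% of all genes fell), among them Zfp57 (-0.49 ± 0.09), and Ctcf was not called in either deletion (0.07 and 0.04). In Cyp26-E1-KO 3 of the 8 were called by edgeR in either direction, where 25.3% of all genes were called, and 6 of the 8 by DESeq2. The knockouts had no edgeR call among the 7 tested (1, 2 and 1 at an unadjusted p under 0.05, and 0, 0 and 1 by DESeq2), with Zfp57 at 0.50, 0.47 and 0.53.

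Other imprinted growth genes moved in both directions. Of 12 tested, 6 rose and 2 fell in Rarα-OE (median log2FC 0.30, where 28.6% of all genes were called) and 8 rose and 3 fell in Rxrα-OE (median 0.40, 60.2% called). Of 13 tested, 3 rose and 4 fell in Cyp26-E1-KO (median -0.06, 25.3% called), and likewise 3 and 4 in Cyp26-E2-KO (median -0.18, 17.5% called). Plagl1, a zinc finger factor known to act on the H19 and Igf2 locus, fell in Cyp26-E1-KO (log2FC -1.81 ± 0.15, edgeR adjusted p = 9.7e-07) and Cyp26-E2-KO (-1.37 ± 0.14), where Igf2 rose, and in Rarα-OE (-0.67), while it rose in Rxrα-OE (0.37 ± 0.16). Cdkn1c, a maternally expressed growth inhibitor farther along chromosome 7, had 0.02 in Rarα-OE and fell by 2.01 in Rxrα-OE and 0.74 in Cyp26-E1-KO on the log2 scale. Meg3, a maternal non-coding RNA, rose from 0.344 to 6.99 CPM in Rxrα-OE (4.34 ± 0.45). Mest, a paternally expressed gene, rose in Cyp26-E1-KO (0.91) and Cyp26-E2-KO (1.03). In the knockouts 2 of the 12 tested were called against WT (RARX): Gnas fell in Rxrα-KO (-0.98 ± 0.14, where 1.2% of all genes fell) and Peg3 rose in RARX-DKO (0.77 ± 0.18). Dlk1 had too few counts to be tested.

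**Figure D5:**
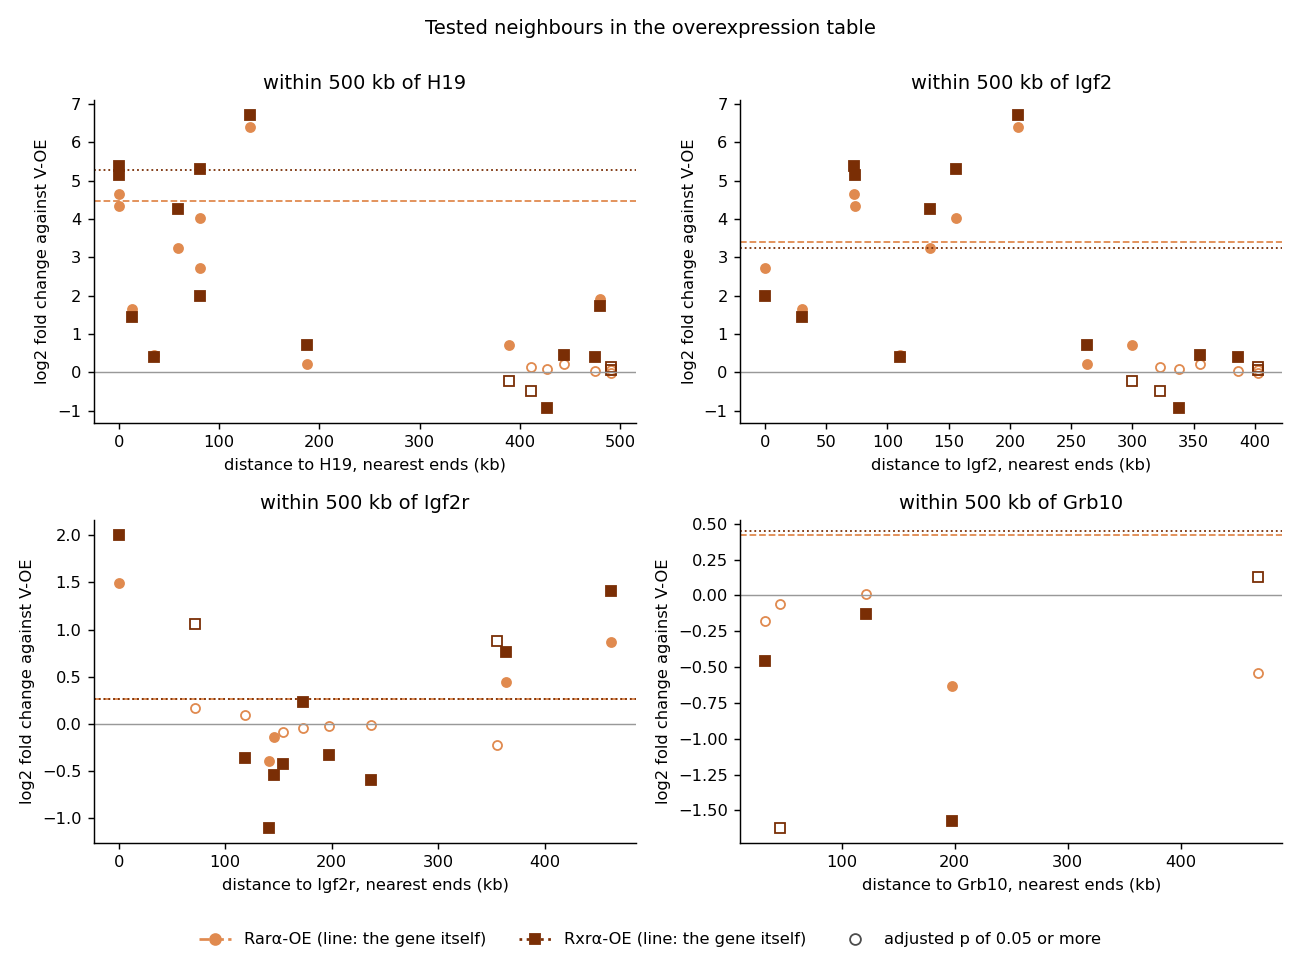
The log2 fold change against V-OE (y axis) of tested genes within 500 kb of each of the 4 genes, by distance in kilobases (x axis), for Rarα-OE (circles) and Rxrα-OE (squares), with open marks for genes not called and lines for the value of the gene itself. Within about 200 kb of H19 the called genes lie above 0, and around Grb10 all called genes lie below it. Tnni2, with no count in V-OE, is drawn at its fitted value (6.41 and 6.71), which depends on the prior count.

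Many tested genes around H19 and Igf2 were also called higher in the overexpressing lines. Of 17 tested genes within 500 kb of H19, 11 rose and none fell in Rarα-OE (14.7% of all genes rose), with a median of 0.72, and 12 rose and 1 fell in Rxrα-OE (30.9% rose), with a median of 0.70. DESeq2 called 7 of the 17 in Rarα-OE and 12 in Rxrα-OE. Gm27483 and Gm27786, the entries inside H19, are among these and share its reads. Lsp1 and Tnni2, also among them, passed the count filter only through the overexpressing lines and could not have been called lower. Part of these counts was therefore fixed in advance. Tnnt3, a fast muscle troponin gene 59.5 kb away, went from 1.04 ± 0.11 CPM in V-OE to 10.1 ± 1.81 in Rarα-OE and 20.4 ± 2.84 in Rxrα-OE (log2FC 3.24 and 4.26). Lsp1, 80.7 kb away, rose by 4.02 ± 0.52 and 5.29 ± 0.44 from 2 counts in each V-OE library, and Tnni2, 131 kb away, had 0 counts in both V-OE libraries and 6 to 15 in the others. Mrpl23, a ribosomal protein gene between them at 34.8 kb, rose by 0.45 and 0.39 only, and Tspan32 fell in Rxrα-OE (-0.93).

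The same region did not share the values of H19 elsewhere. In the knockouts 15 neighbours were tested and the only edgeR call was Gm27786, inside H19, in Rxrα-KO (log2FC 4.49, where 1.28% of all genes rose); 2, 2 and 0 of them had an unadjusted p under 0.05 in Rarα-KO, Rxrα-KO and RARX-DKO, and DESeq2 called 0, 2 and 0. In Cyp26-E2-KO, where H19 rose, Ctsd was the only one of 16 called (0.33). In Cyp26-E1-KO 4 rose and 1 fell: Igf2os, Ctsd (0.41), Cd81 (0.21) and Dusp8 (0.79) rose, and Tnnt3 fell (-1.03), where 13.1% of all genes rose and 12.1% fell. The median over 111 to 116 tested genes within 5 Mb of H19 lay between -0.09 and 0.10 in all 7 comparisons with a control.

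Around Igf2r, 3 of 12 tested neighbours rose and 2 fell in Rarα-OE, and 4 rose and 6 fell in Rxrα-OE, where 28.6% and 60.2% of all genes were called. Agpat4 (log2FC 0.86 and 1.41) and Map3k4 (0.44 and 0.76) rose, and Mrpl18 fell (-0.39 and -1.11). Map3k4 and Acat2 fell in both enhancer deletions, by 0.32 and 0.23 in Cyp26-E1-KO and 0.30 and 0.33 in Cyp26-E2-KO on the log2 scale, where Igf2r was not called.

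Of 5 tested neighbours of Grb10, 1 fell in Rarα-OE and 3 fell in Rxrα-OE, where 13.9% and 29.3% of all genes fell, and 0 rose. In Cyp26-E1-KO 1 of 7 rose and 2 fell, where 13.1% of all genes rose and 12.1% fell. In Cyp26-E2-KO 0 of 7 were called, where 17.5% of all genes were. Cobl, 198 kb away, fell by 0.63 in Rarα-OE and 1.57 in Rxrα-OE on the log2 scale, where Grb10 was higher. Ddc, 32.4 kb away and imprinted with Grb10 in the heart, fell in Cyp26-E1-KO from 70.5 ± 3.40 to 44.2 ± 6.17 CPM (log2FC -0.67 ± 0.10, edgeR adjusted p = 0.000146), and so did Fignl1 (-0.53), while Grb10 and Cobl (0.48) rose. Ddc was also higher in Rxrα-KO than in Rarα-KO (0.93 ± 0.18) and lower in RARX-DKO than in Rxrα-KO (-1.20 ± 0.18), where Grb10 had 0.03 and -0.37.

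The genes most like each of the 4 were taken by Pearson correlation of log2 CPM, centred on each table's mean, over 23 libraries and among 11945 genes. These are descriptions, and the libraries share their groups and controls. Nearest to H19 were Maoa (r = 0.847), Itm2b (0.846), Nrep (0.845), Snhg11 (0.844) and Sparc (0.811), the last a basement membrane protein and one of the endoderm markers. The r of Sparc with H19 was 0.348 within the enhancer table. Endoderm markers did not move as one in the knockouts. In Rarα-KO and RARX-DKO against WT (RARX), Sparc had a log2FC of 0.31 and 0.45 and Amn 0.69 and 0.30, none called. Gata6 fell there (-1.25 and -1.93, both called). Nearest to Igf2 were Lrpap1 (0.937), Bhmt (0.930), Lamb1 (0.925), Fgfr2 (0.918) and Dab2 (0.910). Lamb1 and Dab2 are endoderm markers as well. Lrpap1 went from 137 CPM in V-OE to 320 and 469 in Rarα-OE and Rxrα-OE, and lay at 76.7 in RARX-DKO against 167 in WT (RARX).

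Igf2r was nearest to Map3k1 (r = 0.846), Kank4 (0.840), Tbcd (0.834), Amotl1 (0.833) and Kif1b (0.832). Grb10 was nearest to H13 (0.915), Psmf1 (0.857), Ttl (0.798), Man2a1 (0.795) and Agpat3 (0.781). Within single tables Ttl had an r of -0.043 in the overexpression table and Agpat3 of -0.514 in the enhancer table, so their likeness to Grb10 held in part of the data only; the other genes named for the 4 had 0.348 or more in each table. H13, Psmf1 and Ttl all lie on chromosome 2, where WT (RARX) differed from every knockout over a wide stretch: the median log2FC of 143 tested genes within 5 Mb of H13 was -0.42, -0.47 and -0.43 in Rarα-KO, Rxrα-KO and RARX-DKO. H13, another imprinted gene, had -1.05, -0.86 and -0.99 itself. The same medians around Grb10 on chromosome 11 were near 0, as given above.

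Among the 4, the correlation of H19 with Igf2 was 0.547 over 23 libraries, but -0.0077 in the knockout table, 0.983 in the overexpression table and -0.089 in the enhancer table. That of Igf2 with Grb10 was 0.582 over all, and 0.724, 0.966 and 0.936 in those tables. Igf2 and Grb10 thus had a positive r in every table, and Igf2 and H19 only in the overexpression table. In that table every pair of the 4 genes had an r of 0.883 to 0.983. H19 and Igf2 were chosen for their higher levels in the overexpressing lines, so their high r there was fixed by the choice. Grb10 was likewise chosen on its values in the knockout table. In Rxrα-OE against V-OE 60.2% of all genes were called, so many other genes also differed between these groups. In the knockout table Rxrα-KO parted Igf2 from Grb10, with a log2FC against WT (RARX) of -0.32 and -2.27.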

How the data were processed

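The deposited files were 3 tables of raw read counts per gene. Per the submitters' processing notes, HISAT2 2.1.0, HTSeq 0.9.1, DESeq2 1.18.1 and mm10 were used, with Bowtie2 2.3.1 and MACS2 2.2.7.1; their roles are not given in the sources used here. Symbols or identifiers were matched to GENCODE vM21 for 48082, 48082 and 52403 entries, without use of order. In the enhancer table, columns coded Ac and b were taken as Cyp26-E1-KO and Cyp26-E2-KO because the tables of the Cyp26-E1 and Cyp26-E2 4C baits are coded a and b; this match is uncertain, and if it were crossed every E1 and E2 in the text would be exchanged. The 4C-seq and H3K27Ac data were not analysed here.

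Each table was fitted as a whole by the robust quasi-likelihood test of edgeR 4.0.16 in R 4.3.3, after TMM scaling and a filter (filterByExpr, minimum count 10), which tested 16445, 16914 and 18768 genes. Adjusted p-values are Benjamini-Hochberg over all genes tested, called under 0.05, and they come from two-sided tests. The standard error is the absolute log2FC divided by the root of F. CPM is per 1000000 counts of the scaled library; a prior count of 2 was added for log2 CPM. The genes and lists were chosen with earlier results of these data known, and comparisons within a table share libraries. Genes named are those of the fixed rule: the 4 genes, a set of pathway genes whatever their result, up to 3 called genes with the largest change per list, called neighbours within 500 kb and the 5 nearest by correlation. The 5 Mb medians and the levels of neighbours were added after the values were seen. The fit was tested on simulated data with 100 genes changed 2-fold and 100 changed 4-fold, of which it recovered 46% and 83% in Rarα-KO minus WT (RARX) (16445 genes), 75% and 94% in Rarα-OE minus V-OE (16914 genes), and 58% and 84% in Cyp26-E1-KO minus WT (Cyp26) (18768 genes). Alternatives were DESeq2 1.42.0, library totals without TMM, no filter, only the 2 groups compared, a replicate block and each library left out.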

Additional observations from a re-analysis of the deposited data

Results flagged for a closer look

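H19 differed between the enhancer deletions by a direct test, at a log2FC of 1.64 for Cyp26-E2-KO minus Cyp26-E1-KO: it rose in one and had a negative, uncalled value in the other. Igf2 differed between them the other way, at -0.41, although it rose in both. Igf2 also differed between RARX-DKO and Rxrα-KO, at -2.10, a value that rests on pairs of libraries of which the Rxrα-KO pair was 9.11 and 21.9 CPM.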

How the results depend on the processing

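Replicate numbers did not pair the samples: the correlation of same-numbered deviations was -0.214 to 0.121 over the 12 same-numbered library pairs of the knockout table, -0.0142 to 0.00662 over the 6 of the overexpression table and -0.0563 to 0.107 over the 9 of the enhancer table. With a replicate block, Igf2 in RARX-DKO minus Rxrα-KO was -2.08 (adjusted p = 0.0535), and the block changed no other call of the 4 genes; over all genes it took Rarα-KO from 106 to 86 calls and Rxrα-KO from 407 to 314.

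Of the values of the 4 genes under other settings, 244 were the same, 6 moved beyond the replicate spread, 3 gained and 3 lost a call, and with a library left out 242 were the same, 2 gained and 4 lost one. None that had been called reversed. The cause of these changes was not tested. DESeq2 called H19 in RARX-DKO minus Rxrα-KO (-2.84) and Grb10 in Cyp26-E2-KO minus Cyp26-E1-KO (-0.21). Without the filter Igf2 in Rxrα-KO minus Rarα-KO passed (1.09, adjusted p = 0.00765). With only the 2 groups compared, Igf2 missed the threshold in RARX-DKO minus Rxrα-KO (-2.10, adjusted p = 0.119) and in Cyp26-E2-KO minus Cyp26-E1-KO (-0.40, adjusted p = 0.0535). Without TMM, values in the overexpression table were 3.44 and 3.35 for Igf2 in Rarα-OE and Rxrα-OE, -0.084 between them, 0.87 for H19 between them, and 0.37 for Igf2r and 0.54 for Grb10 in Rxrα-OE. Leaving out 1 library gave Igf2 0.36 to 1.59 in Rxrα-KO minus Rarα-KO, -2.58 to -1.35 in RARX-DKO minus Rxrα-KO and -0.47 to -0.34 in Cyp26-E2-KO minus Cyp26-E1-KO, and Grb10 -0.23 to -0.17 in the last. H19 was 3.37 to 5.19 in Rxrα-KO and 0.72 to 2.29 in RARX-DKO against WT (RARX).

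Counts of calls depended more on the setting, with 73 the same and 33 moved. Listed genes called went from 0 to 1 by DESeq2, 3 without the filter and 3 with only the 2 groups in Rarα-KO, from 1 to 2, 5 and 4 in Rxrα-KO and from 1 to 3, 4 and 2 in RARX-DKO. They went from 4 to 9 by DESeq2 and 10 without the filter between the single knockouts, from 5 to 10 without the filter and 1 with only the 2 groups in RARX-DKO minus Rxrα-KO, from 0 to 1 by DESeq2 and 1 without the filter for the departure from the sum, from 44 to 28 by DESeq2 between the overexpressing lines, and from 7 to 15 without the filter, 1 with only the 2 groups and 13 without replicate 2 of Cyp26-E1-KO between the deletions. Neighbours called became 2 with only the 2 groups in Rarα-KO, 2 by DESeq2, 0 without the filter and 0 with only the 2 groups in Rxrα-KO, 1 with only the 2 groups between the single knockouts, 2, 2 and 0 in RARX-DKO minus Rxrα-KO, and 1 by DESeq2 and 1 without the filter for the departure. They became 6 with only the 2 groups in Cyp26-E1-KO, 5 without TMM and 10 with only the 2 groups in Cyp26-E2-KO, and 1 with only the 2 groups between the deletions. Over all genes, calls in Rarα-KO ranged from 8 to 588 and in Rxrα-KO from 21 to 1084 over these settings. The fit recovered 46% of simulated 2-fold changes in Rarα-KO minus WT (RARX) and 75% in Rarα-OE minus V-OE. Replicate variance was 7.32 to 13.2 times the counting variance in the knockout table and 1.88 to 2.22 times in the overexpression table.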
